A study of Mus musculus with 20 samples.

Results

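The genes described are 10 of the bone morphogenetic protein (BMP) pathway, namely the Id factors Id1, Id2, Id3 and Id4, the ligand Bmp4, the receptors Bmpr1a and Bmpr2, the secreted antagonist Nog (Noggin) and the inhibitory Smads Smad6 and Smad7. They were taken by gene symbol, and all 10 were listed among the 27998 genes of each single-cell RNA-seq (scRNA-seq) library and among the 24062 genes of the RNA-seq of cultured cells. Nestin-EGFP+ cells were sorted from the microdissected dentate gyrus of C57BL/6 Nestin-EGFP mice at postnatal day 5 (P5), 12 weeks (12w) and 24 weeks (24w), and scRNA-seq and scATAC-seq (transposase-accessible chromatin in single nuclei) gave 1 library per age and assay. EGFP is driven there by Nestin regulatory sequence, so the sort collects any cell in which that sequence is active, vascular and oligodendrocyte lineage cells included. The number of mice per library is not given in the sources used here. RNA-seq was performed 3 days after lentiviral infection of cultured mouse neural stem cells (NSCs) selected with puromycin, which carried either an shRNA against Setd8, the H4K20 monomethyltransferase (Setd8KD), or a control construct (Ctrl). The methods describe them as a long-passaged line from embryonic cortex kept in EGF and bFGF, whereas the labels name hippocampus.

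In the pathway, dimers of ligands such as Bmp4 bring type I receptor kinases such as Bmpr1a together with type II receptors such as Bmpr2, and the receptors phosphorylate Smad1, Smad5 and Smad9, which enter the nucleus with Smad4. Id genes are among the most direct targets, and Smad6 and Smad7 are targets that feed back on the receptors, while Noggin binds ligands outside the cell. Id proteins have a helix-loop-helix domain without a DNA-binding region, pair with E proteins and so hold back neurogenic factors of the bHLH class. In the adult dentate gyrus, BMP signalling is known for its part in keeping stem cells quiescent.

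The upstream sequences of Id2, Id3 and Id4 are shown here, because each was the leading Id factor of a class described below and the Id results turn on them. Of the 10 genes, 7 were matched in the table of upstream sequences, and Id1, Nog and Smad7 were not. In RefSeq on GRCm38.p6, the build of the files, the 250 bases before the start lie at chr12:25096093-25096342 on the minus strand for Id2, at chr4:136143572-136143821 on the plus strand for Id3 and at chr13:48260866-48261115 on the plus strand for Id4. Capitals mark GGCGCC, a GC-rich element known from BMP-responsive Id1 enhancers, and CAGAC or its reverse complement GTCTG, the core of the Smad-binding element. The motifs do not overlap each other.
Id2: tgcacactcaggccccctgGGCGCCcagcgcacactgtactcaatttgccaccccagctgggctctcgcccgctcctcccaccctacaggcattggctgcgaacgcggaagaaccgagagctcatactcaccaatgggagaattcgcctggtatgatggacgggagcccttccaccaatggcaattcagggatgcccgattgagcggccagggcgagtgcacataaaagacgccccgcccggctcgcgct
Id3: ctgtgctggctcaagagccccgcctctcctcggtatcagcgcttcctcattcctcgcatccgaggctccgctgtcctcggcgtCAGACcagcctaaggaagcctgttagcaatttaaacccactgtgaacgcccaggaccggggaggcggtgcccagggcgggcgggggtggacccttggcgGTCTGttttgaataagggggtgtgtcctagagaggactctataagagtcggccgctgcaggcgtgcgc
Id4: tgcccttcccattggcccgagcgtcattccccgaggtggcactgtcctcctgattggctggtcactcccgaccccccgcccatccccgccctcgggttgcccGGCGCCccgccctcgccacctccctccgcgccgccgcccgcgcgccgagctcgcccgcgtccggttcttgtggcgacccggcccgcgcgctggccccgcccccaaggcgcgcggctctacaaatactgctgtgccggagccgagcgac
GGCGCC stood once in each of the Id2 and Id4 windows and was not found in that of Id3, whereas CAGAC was found at 2 places in Id3 and at none in Id2 or Id4. Of 32851 promoters of this length, 9.59% held GGCGCC and 42.2% held CAGAC on either strand. The Bmpr1a and Bmpr2 windows also held 1 GGCGCC each, those of Bmp4 and Smad6 held none, and no CAGAC was found in these 4. By the gene positions given below, the Bmpr1a window lies inside the gene and the Smad6 window overlaps its end, so these windows are not the bases before the outermost start. The G+C content was 62.8% for Id2, 62.8% for Id3 and 75.6% for Id4 against a median of 52.4%, and the windows held 18, 18 and 35 CpG against a median of 6.

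By RefSeq on GRCm38.p6 Bmp4 and Bmpr1a share a chromosome and the others lie on different ones, and each position given spans the whole gene, introns and untranslated ends included. Id1 (ENSMUSG00000042745) is at chr2:152736251-152737410, Id2 (ENSMUSG00000020644) at chr12:25093799-25096092, Id3 (ENSMUSG00000007872) at chr4:136143822-136145392 and Id4 (ENSMUSG00000021379) at chr13:48261116-48266028. Bmp4 (ENSMUSG00000021835) is at chr14:46383525-46390669, Bmpr1a (ENSMUSG00000021796) at chr14:34411061-34503336 and Bmpr2 (ENSMUSG00000067336) at chr1:59764279-59878081. Nog (ENSMUSG00000048616) is at chr11:89300638-89302559, Smad6 (ENSMUSG00000036867) at chr9:63953076-64022085 and Smad7 (ENSMUSG00000025880) at chr18:75367365-75395935.

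After filtering, 12752 (P5), 5271 (12w) and 2794 (24w) cells remained, with a median of 4261, 2271 and 2178 unique molecular identifiers (UMIs, each standing for 1 captured RNA molecule). Values given in threes below follow that order of ages. Cells were clustered without the genes described, and clusters were named "X-like" from marker genes. NSC-like cells numbered 1432, 381 and 112, astrocyte-like (AS-like) cells 3450, 382 and 110, progenitor-like (NPC-like) cells 602, 81 and 16, and immature neuron-like cells 414, 236 and 34 (IMN1-like) and 702, 453 and 61 (IMN2-like). The vascular classes were pericyte-like (PC-like), smooth muscle-like (VSMC-like) and endothelial-like (EC-like), of which EC-like cells numbered 12, 89 and 108. Of the fixed markers, 6 of 9 were highest in NSC-like cells, 7 of 10 in AS-like cells and 7 of 7 in EC-like cells. For NPC-like, IMN1-like and IMN2-like cells it was 6 of 8, 4 of 6 and 4 of 7. For PC-like and VSMC-like cells it was 6 of 7 and 6 of 6. Unnamed cells made up 15.5%, more of them at P5 (22.7%) than at 12w (5.16%) or 24w (2.25%). Cells with Xist and no Y-linked UMI made up 20.1%, 92.4% and 0.0358% of the libraries, so age and sex cannot be told apart between the adult ones. The P5 library lists only selected barcodes, and RNA outside cells could be estimated in the adult libraries only, where it was predicted to give 8.66% (12w) and 10.6% (24w) of the UMIs of NSC-like cells. P5 and 12w shared 86 cell barcodes, P5 and 24w 57, and the adult libraries 26.

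Levels are UMIs pooled over the cells of a class, per 1000000 UMIs of that class (CPM), which for this 3′ assay do not depend on transcript length. With 1 library per age there is no replicate error and no test, and the 95% intervals cover counting error only. A gene was counted as risen or fallen when both adult levels lay 2-fold or more above, or both below, its P5 level, and when, against P5, the age with the higher level had 20 UMIs or more in each comparison. In bulk, and in pooled levels of a class, fewer expressing cells and less RNA per cell cannot be told apart.

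In NSC-like cells the Id factors changed places with age. Id3 fell and Id4 rose, and the family total changed less than either. The P5, 12w and 24w levels of Id3 were 1400.0, 173 and 334 CPM, the adult ones being 0.124 (0.108 to 0.141) and 0.238 (0.199 to 0.283) of the first. Id4, the family member best known for keeping adult hippocampal stem cells quiescent, stood at 530.3, 1333 and 1398 CPM, or 2.51 (2.37 to 2.66) and 2.64 (2.405 to 2.89) times P5. Id1 also fell, from 283 to 90.7 and 79.0 CPM, which is 0.320 (0.264 to 0.384) and 0.279 (0.189 to 0.397) of P5. Id2 stood at 468, 218 and 293 CPM and passed the 2-fold limit at 12w but not at 24w. The adult libraries lay close together for Id1 and Id4, while Id3 was 1.93 (1.54 to 2.395) times as high at 24w as at 12w.

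**Figure D1:**
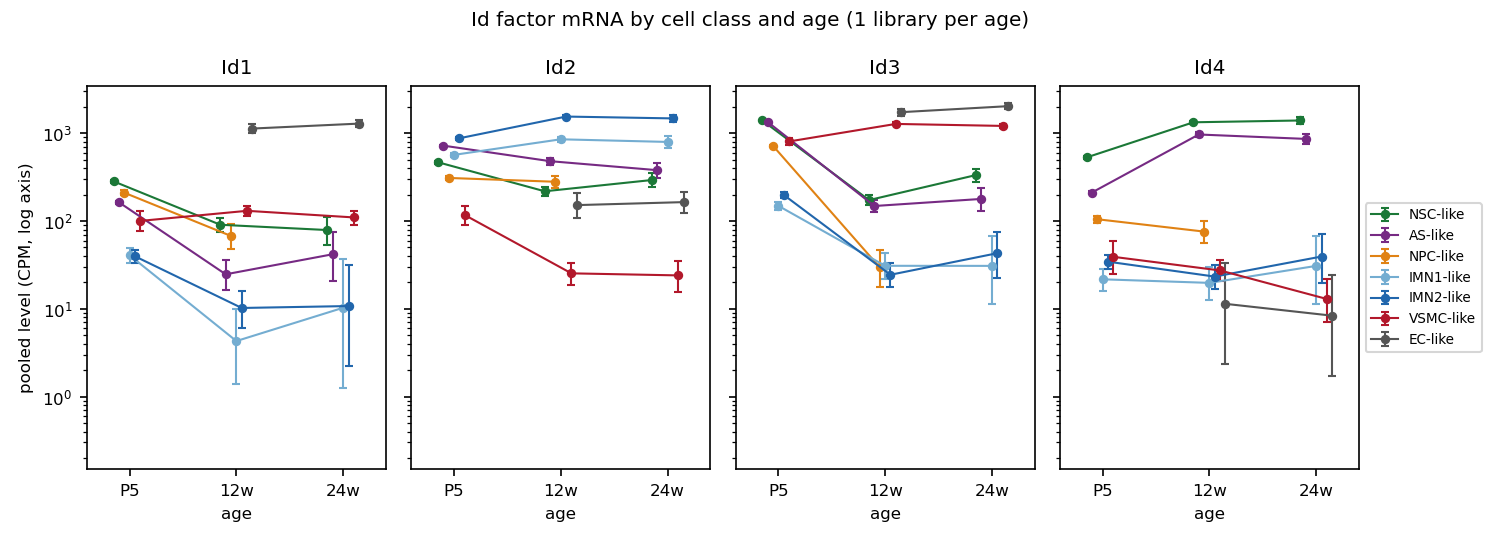
Pooled levels of Id1, Id2, Id3 and Id4 (CPM, log axis) at P5, 12w and 24w by cell class, with 1 library per age and bars for exact 95% counting intervals. In NSC-like cells Id3 goes from 1400.0 to 173 and 334 CPM while Id4 goes from 530.3 to 1333 and 1398 CPM.

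The 4 Id factors together summed to 2681, 1815 and 2104 CPM in NSC-like cells. Within that sum the share of Id3 was 52.2%, 9.55% and 15.9%, and that of Id4 19.8%, 73.4% and 66.5%. Id3 was thus the leading member at P5 and Id4 in both adult libraries. The same order was seen when each cell was thinned to 1000 UMIs: 58.5%, 14.4% and 20.5% of NSC-like cells then had an Id3 UMI, and 39.2%, 69.8% and 75% an Id4 UMI. Without thinning the shares for Id3 were 85.1%, 29.9% and 41.1%, and for Id4 82.5%, 95.3% and 96.4%. In IMN2-like cells, where Id4 is low, 4.13%, 2.65% and 3.28% of thinned cells had an Id4 UMI, and for Id3 the shares were 19.1%, 2.65% and 4.92%.

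**Figure D2:**
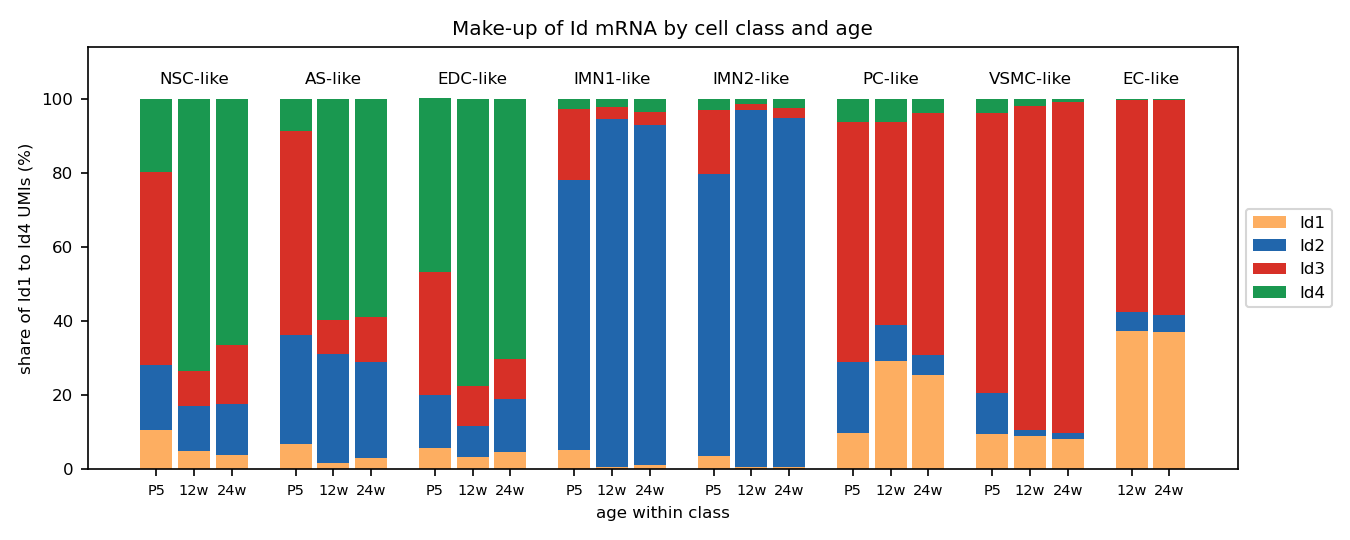
Share of each Id factor in the summed UMIs of the 4 Id factors (percent, stacked to 100) by cell class and age. In NSC-like cells the Id3 share goes from 52.2% at P5 to 9.55% and 15.9%, and the Id4 share from 19.8% to 73.4% and 66.5%.

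Both NSC-like clusters with at least 20 cells at every age showed the exchange. In the cluster led by Cyr61, Pla2g16 and Ass1, Id3 stood at 1424, 168.5 and 252.6 CPM and Id4 at 489, 1342 and 1387. In the cluster led by Frzb, Tfap2c and Pdlim3, Id3 stood at 1437, 183 and 502.5 CPM and Id4 at 582, 1320 and 1421. The adult libraries thus lay further apart for Id3 in the second cluster, which had 32 cells at 24w. With P5 cells of like sex, the log2 ratios to P5 were -2.93 and -2.06 for Id3 and 1.27 and 1.46 for Id4, against -3.01, -2.06, 1.33 and 1.40 with all P5 cells.

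Several other measures moved with age in the same cells. The 7 pericyte markers, all detected, summed to 264.7, 1224 and 2249 CPM in NSC-like cells. The 6 smooth muscle markers summed to 8.61, 106.9 and 132 CPM with Cnn1 at 0 at every age, and the 7 endothelial markers to 12.0, 50.1 and 163 CPM with Cdh5 at 0. The 9 NSC markers summed to 1341, 3738 and 2545 CPM and the 10 astrocyte markers to 1544, 2960 and 3492 CPM, higher in adults as Id4 was. RNA outside cells was predicted to give 20.6% and 16.8% of the adult Id3 level but 1.47% and 1.46% of the Id4 level. That prediction was set from the same vascular markers, so it is not a measure separate from their sums. A list of 13 immediate-early and heat-shock genes, chosen after seeing the data, summed to 1534, 1251 and 654.6 CPM. The part of these measures in the Id results was not tested. With predicted free RNA subtracted from the adult libraries only, Id3 had log2 ratios of -3.21 and -2.17 and Id4 of 1.44 and 1.54. The P5 levels were left uncorrected, so this does not test the part of free RNA in the change from P5.

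Of the 10 genes, 9 could be compared in NSC-like cells. Id4 was 1 gene that rose, where 3.44% of 11127 genes rose, and Id1, Id3, Nog and Smad7 were 4 that met the limit for a fall, where 5.19% fell. The median log2 ratio over all 10 genes, Bmp4 with its few UMIs included, was -1.13 at 12w and -0.83 at 24w (-0.69 with genes at 0 UMIs set to their bound), against 0.06 and 0.12 over all genes.

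AS-like cells showed the same exchange. Id4 stood at 211, 968 and 862 CPM, Id3 at 1347, 148 and 178.5, and Id1 at 163.6, 24.7 and 41.8. Id4 was therefore 4.58 and 4.08 times P5, Id3 0.1101 and 0.133 and Id1 0.151 and 0.255. Free RNA was predicted to give 25.8% and 36% of the adult Id3 level here and 46.5% and 50.7% of that of Id1. With it subtracted from the adult libraries only, the log2 ratios of Id1 were -3.44 and -2.68. Id2, at 723, 481 and 379.9 CPM, stayed within 2-fold. Id4 was 1 riser among 9 genes compared, where 2.6% of all genes rose, and Id1, Id3 and Smad6 were 3 that met the limit for a fall, where 5.77% fell. Id4 was higher in NSC-like than in AS-like cells at every age, by 2.51, 1.38 and 1.62 times, while the Id3 ratio of the classes was 1.04, 1.17 and 1.87. Pericyte markers summed to 158, 1305 and 2579 CPM in AS-like cells and the 9 NSC markers to 405.3, 2257 and 1485 CPM, with Vnn1 and Wnt8b at 0 at 24w, and their part was not tested.

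Along the neuronal lineage Id2 became the leading Id factor. In IMN2-like cells Id2 stood at 876, 1549 and 1476 CPM, or 1.77 and 1.685 times P5, and in IMN1-like cells at 567, 853 and 796 CPM, or 1.505 and 1.405 times, which is under the 2-fold limit. The early-gene list summed to 516.2, 1570 and 1397 CPM in IMN2-like cells, and its part was not tested. Id2 made up 76.2%, 96.4% and 94.1% of the Id UMIs of IMN2-like cells and 72.8%, 94% and 91.7% of those of IMN1-like cells. Compared with NSC-like cells, IMN2-like cells had 1.87, 7.10 and 5.04 times the Id2 level but 0.0649, 0.0175 and 0.0282 times the Id4 level, of which free RNA was predicted to give 74.2% and 48.8% in adult IMN2-like cells. NPC-like cells held 309.6 CPM of Id2 at P5 and 280.1 at 12w, and 105 and 75.8 CPM of Id4. An unnamed cluster led by Hist1h2ap, 2810417H13Rik and Rrm2 (697, 165 and 28 cells) scored highest for NPC markers but stayed apart from that class. It held 237.8, 144.5 and 137.9 CPM of Id2 and 69.0, 114.4 and 114.9 CPM of Id4. At a clustering resolution of 1.2 a cluster led by the same genes took the NPC-like name. One led by Ube2c, Ccnb1 and Cenpf did not, so the cells of the NPC-like class depend on the resolution.

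Id3 was low in the adult neuronal classes, and Id1 in IMN1-like and IMN2-like cells. In NPC-like cells Id1 stood at 210.3 CPM at P5 and 67.6 at 12w, of which free RNA was predicted to give 14.2%. Id3 fell from 720.2 to 29.7 CPM at 12w in NPC-like cells, from 149 to 30.9 and 30.8 CPM in IMN1-like cells and from 199 to 24.4 and 43.0 CPM in IMN2-like cells. Id1 fell from 40.8 to 4.29 and 10.3 CPM in IMN1-like cells and from 39.7 to 10.2 and 10.75 CPM in IMN2-like cells. The adult levels of Id3, and of Id1 in IMN1-like and IMN2-like cells, are near or below what RNA outside cells was predicted to give, 108% of the Id3 level of NPC-like cells at 12w and 128% and 123% of that of IMN2-like cells for instance, so they give no evidence of expression there. Free RNA could not be estimated at P5, so its part in the P5 levels and in these falls was not tested. Over all cells of the libraries Id3 stood at 1082, 308.3 and 467.6 CPM and Id1 at 179.5, 87.85 and 148.2 CPM. The 24w NPC-like class has 16 cells. The limit for a fall was met by 2 of 8 genes in NPC-like cells (Id3 and Nog, background 5%). It was met by 3 of 7 in IMN1-like cells (Id1, Id3 and Smad7, background 2.27%) and 3 of 7 in IMN2-like cells (Id1, Id3 and Smad7, background 2.5%). Nog in NPC-like cells and Smad7 in the IMN1-like and IMN2-like cells had 0 UMIs at 24w. Their P5 levels are below what 3 UMIs give there, so these calls rest on the added 0.5 UMIs and no difference was detectable at 24w. None of the 10 rose in these classes, where 0.822%, 1.47% and 1.71% of all genes rose.

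Among vascular cells the Id factors were mostly Id1 and Id3. EC-like cells held 1131 CPM of Id1 at 12w and 1288 at 24w, and 1738 and 2034 CPM of Id3, so that Id1 and Id3 made up 37.3% and 57.3% of their Id UMIs at 12w and 36.9% and 58.2% at 24w. VSMC-like cells held 806, 1277 and 1212 CPM of Id3, a ratio to P5 of 1.58 and 1.504, and PC-like cells 399.5, 175 and 247.5 CPM, a ratio of 0.439 and 0.6197. These classes are made up of different clusters by age. The VSMC-like cluster led by Acta2, Tagln and Map3k7cl, with 74 of the 87 P5 cells, held 818.5, 1094 and 882.4 CPM of Id3, while another with under 20 P5 cells held 1738 and 2042 CPM at 12w and 24w. The PC-like cluster with 296 of the 382 P5 cells, led by Ackr3, Lurap1l and Mgp, held 414.1, 254.8 and 338.2 CPM. The part of this make-up in the class ratios was not tested. Id2 fell in both, from 119.7 to 31.9 and 20.8 CPM in PC-like cells and from 117 to 25.4 and 24.0 CPM in VSMC-like cells. Within the same clusters Id2 went from 127 to 30.8 and 17.7 CPM and from 122.4 to 14.6 and 16.8 CPM.

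Ependymal-like cells (EDC-like; 295, 34 and 61 cells), which like NSCs descend from radial glia, held 449, 814 and 698 CPM of Id4 and 317, 114 and 109 CPM of Id3, of which free RNA was predicted to give 49.8% and 70% in adults. Their Id4 share of the Id UMIs went from 46.9% to 77.5% and 70.2%. An unnamed cluster of 865 P5 cells led by Serpinf1, Pla2g3 and Aqp4 had a higher Id sum than any named class of that age, with 3390.0 CPM of Id3, 1018 of Id2, 509.6 of Id1 and 301.1 of Id4, a sum of 5219. That cluster also held 81.2 CPM of Nog and 172 CPM of Bmpr1a.

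Bmp4 was found in oligodendrocyte-like (OL-like) cells and, in adults, in vascular mural cells. OL-like cells, whose 137, 34 and 24 cells express their 7 markers most highly, held 711, 798 and 560 CPM. Their cluster scored 4.93 for these markers and 3.84 for those of committed oligodendrocyte precursors, of which Bcas1 and Enpp6 were among its leading genes. Mature and newly formed cells were therefore not told apart in it. PC-like cells held 11.2, 143.0 and 139 CPM, which is 12.8 (8.31 to 20.8) and 12.5 (8.075 to 20.3) times P5. VSMC-like cells held 1.70, 39.8 and 51.7 CPM, and since the P5 value is 1 UMI, the ratios of 23.4 (4.08 to 935) and 30.4 (5.24 to 1223) are poorly bounded. NSC-like cells held 7, 7 and 3 Bmp4 UMIs, too few to compare. In PC-like cells 1 of 8 genes rose (Bmp4, background 14.6%) and 1 fell (Id2, background 8.24%), and in VSMC-like cells 1 of 7 rose (Bmp4, background 17%) and 1 fell (Id2, background 5.96%). PC-like cells numbered 382, 2445 and 1748 and VSMC-like cells 87, 747 and 430, and in VSMC-like cells the early-gene list summed to 1146, 2445 and 3134 CPM, whose part was not tested.

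**Figure D3:**
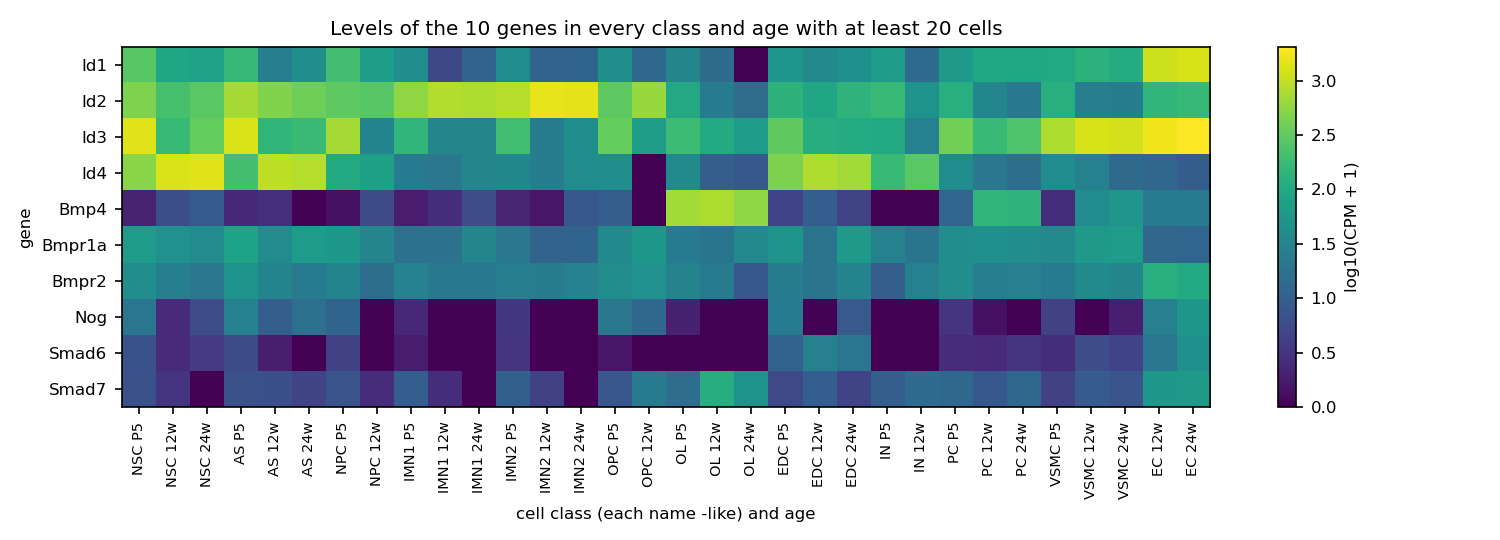
Pooled level of each of the 10 genes (rows) by cell class and age (columns), coloured by log10 of CPM plus 1. Of the named classes, Bmp4 is highest in OL-like cells (711, 798 and 560 CPM), Id2 in IMN2-like cells and Id4 in NSC-like cells. Id1, Id3, Bmpr2, Nog and Smad6 have their highest mean among them in EC-like cells, which are shown at 12w and 24w only. Unnamed clusters are not shown, and that led by Serpinf1, Pla2g3 and Aqp4 held 3390 CPM of Id3 and 81.2 CPM of Nog at P5.

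The receptors were expressed broadly and differed less with age. Bmpr1a stood at 64.5, 46.4 and 38.2 CPM in NSC-like cells, at 80.9, 38.45 and 64.6 in AS-like cells and at 37.4, 58.7 and 65.6 in VSMC-like cells. Bmpr2 stood at 41.4, 25.8 and 20.4 CPM in NSC-like cells and at 47.7, 30.2 and 22.8 in AS-like cells. In EC-like cells the balance was the other way, with 11.4 and 11.1 CPM of Bmpr1a against 118 and 106 of Bmpr2 at 12w and 24w. Neither receptor gene passed the 2-fold limit at both ages in any of the 7 classes compared.

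Nog, the antagonist, was counted with 115, 2 and 2 UMIs in NSC-like cells. These are 18.7, 1.47 and 5.09 CPM, ratios to P5 of 0.0789 (0.00944 to 0.292) at 12w and 0.273 (0.0326 to 1.01) at 24w. Nog was therefore low at 12w, although its level there is below the 2.21 CPM that 3 UMIs would give, so the size of the ratio is uncertain. Its interval at 24w includes a ratio of 1, and its level there is below the 7.64 CPM that 3 UMIs would give. AS-like cells held 27.7, 9.16 and 15.2 CPM from 360, 10 and 4 UMIs and did not pass the limit at 24w. NPC-like cells held 10.5 CPM at P5 and no UMI at 12w, at least 2.12-fold lower against the 4.94 CPM of 3 UMIs over the class. The P5 level includes 52 cells of a cluster led by Dtl, Hells and Clspn with no adult counterpart, which held 52.7 CPM, while the other P5 cells held 7.37 CPM. At 24w, the 16 NPC-like cells had no Nog UMI either, but 3 UMIs would be 27.2 CPM there, so no difference was detectable and the call rests on the added 0.5 UMIs.

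Smad6 and Smad7 were low in neural cells, and near the limit of detection there in adults. Smad6 stood at 5.85, 1.47 and 2.55 CPM and Smad7 at 5.69, 2.21 and 0 CPM in NSC-like cells, and Smad6 at 4.47, 0.916 and 0 CPM in AS-like cells. The P5 levels of Smad7 in NSC-like, IMN1-like and IMN2-like cells and of Smad6 in AS-like cells are below what 3 UMIs give at 24w. These calls rest on the 0.5 UMIs added to both sides, and no difference was detectable at this depth. Both genes were higher in EC-like cells, and Smad7 in OL-like cells too. EC-like cells held 19.0 and 44.5 CPM of Smad6 and 56.9 and 61.2 CPM of Smad7 at 12w and 24w, and OL-like cells 14.2, 113 and 49.7 CPM of Smad7. By mean CPM over the ages, 6 of the 10 genes were highest in EC-like cells among the named classes, without a P5 value in the EC-like mean. The share of all genes highest there was not computed. Smad7 led only by 59.07 against 59.06 CPM in OL-like cells, and Nog from 7 and 20 UMIs. Unnamed P5 clusters led by Serpinf1, Pla2g3 and Aqp4 and by Myoc, Gfap and Agt were not ranked, and held 81.2 and 93.3 CPM of Nog. At P5 alone, where the 12 EC-like cells gave no value, 0 genes were highest in a vascular class.

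Counting intervals that excluded a ratio of 1 in the same direction at both ages were most frequent for Id3, which was lower in 6 of the 7 classes compared and higher in 1. Id1 was lower in 5 and higher in 1, Id2 lower in 4 and higher in 2, and Id4 higher in 2 and lower in 1. Bmp4 was higher in 3 classes, Bmpr1a lower in 1 and Bmpr2 lower in 2. For Bmp4 these include NSC-like cells with their 7, 7 and 3 UMIs, where free RNA was predicted to give 48.5% and 45.8% of the adult level. Nog, Smad6 and Smad7 did so in 0 of 7. These counts treat ages as compared within 1 library each and cover counting error only. The share of all genes that meet this rule was not computed, so the counts have no background. Intervals narrow with more UMIs, and at P5 NSC-like cells had 8613 UMIs of Id3 but 35 of Smad7. The order of the genes therefore depends on their abundance too.

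Across 34 pairs of class and age, the gene closest to Id1 in log level was Id3 (Pearson correlation 0.847, 3588 genes compared), followed by Gnai2 (0.763) and Flt1 (0.724), a VEGF receptor of endothelial cells. Id4 was closest to Tmem47 (0.921), Prdx6 (0.914) and Pygb (0.905), and Id2 was close to Celf2 (0.829) and Emx2 (0.825), a forebrain transcription factor. After Id1, Id3 was closest to Tnfrsf19 (0.836) and Gnai2 (0.804). Id3 and Id4 had a correlation of -0.012. The pairs share 3 libraries, and classes of a library share its depth and free RNA, so these values are a description.

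A list of 41 further pathway genes, in which 29 could be compared in NSC-like cells, gave 2 that rose and 4 that fell, where 3.44% and 5.19% of all genes did. Of the ligands, Bmp7 was 0.113 and 0.196 times P5 from 2 and 1 UMIs, with an interval at 24w that includes a ratio of 1, Gdf10 0.107 and 0.255, and Bmp1, a protease that cleaves the antagonist Chordin despite its name, 0.355 and 0.378. Of the secreted antagonists and modulators, Chrdl1 fell to 0.0553 times P5 at 12w from 1 UMI. It had 0 UMIs at 24w, where the interval reaches 0.721 times P5, so a 2-fold fall is not bounded there. Nbl1 was 5.74 and 4.44 times and Bambi, a decoy receptor, 6.26 and 7.14 times P5. Free RNA was predicted to give 93.1 of the 204 CPM of Nbl1 at 12w and 140 of the 157.9 CPM at 24w, and 2.52 of 80.3 and 3.13 of 91.7 CPM of Bambi. Nbl1 stood at 35.6 CPM at P5. The P5 library allows no such prediction, so how far free RNA accounts for the higher adult levels of Nbl1 was not tested. None of the 7 receptors, 3 Smads, 5 other targets and 3 E proteins that could be compared passed the limit, although the co-receptor Rgmb, at 2.98 (2.01 to 4.385) and 2.24 (1.03 to 4.37) times P5, missed only the minimum of 20 UMIs with its 10 UMIs at 24w. In AS-like cells 1 of 31 passed the limit for a rise and 1 fell (Bmp7; background 2.6% and 5.77%), in NPC-like cells 1 of 26 and 4 (0.822% and 5%), in IMN1-like cells 1 of 17 and 0 (1.47% and 2.27%), and in IMN2-like cells 1 of 22 and 2 (1.71% and 2.5%). The gene with the rise was Nbl1 in each, and free RNA was predicted to give 82.6% and 94% of its adult level in AS-like cells, 54.5% at 12w in NPC-like cells, 106% and 68.1% in IMN1-like cells and 102% and 85.8% in IMN2-like cells. Nbl1 is abundant in PC-like cells, at 2391 CPM at 12w. Of the falls, all 4 in NPC-like cells rest on 0 or 1 UMIs at 24w, with intervals there that include a ratio of 1. The 24w intervals of the 2 falls in IMN2-like cells include it too. In PC-like cells 5 of 25 rose and 4 fell, where 14.6% and 8.24% of all genes did, and in VSMC-like cells 5 of 20 rose and 1 fell, where 17% and 5.96% did.

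Chromatin near the gene starts differed less than RNA. Labels were transferred to 8789, 12640 and 6041 nuclei, of which 367, 513 and 191 were NSC-like, and transposase sites in peaks within 1 kb of each start were pooled and given as CPM of the sites in shared regions. Id3 stood at 142.7, 132.8 and 131.6 CPM, and Id4 at 75.8, 79.3 and 87.5. The log2 ratios to P5 were -0.10 and -0.12 for Id3 and 0.07 and 0.21 for Id4, against a median of -0.15 and -0.13 over 16306 genes. The opposite RNA changes of Id3 and Id4 were not matched by changes of 1.5-fold in these pooled peaks. Whole peaks were counted, which covered 9395, 11282 and 10567 bases for Id3 and 3173, 3270 and 3104 bases for Id4. A change in a shorter stretch within them was not tested. Id1 stood at 86.7, 88.1 and 78.2 CPM and Id2 at 181.7, 191.8 and 210.7. The covered length of the peaks differed between libraries, and per kb covered the ratios to P5 were 0.773 and 0.692 for Id1, 1.4 and 1.55 for Id2, 0.776 and 0.822 for Id3 and 1.01 and 1.18 for Id4.

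**Figure D4:**
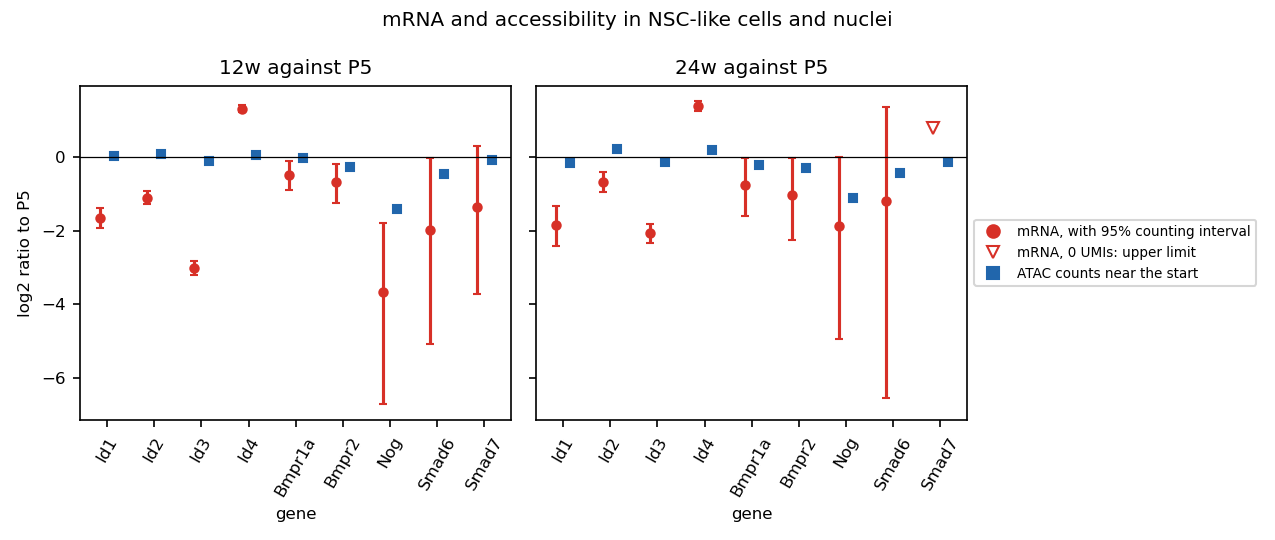
Log2 ratio to P5 at 12w (left) and 24w (right) of mRNA (circles, pooled UMIs with 95% counting intervals; open triangles are upper limits where 0 UMIs were counted) and of accessibility near the gene start (squares) in NSC-like cells and nuclei, for the genes with at least 20 UMIs at P5. The mRNA points of Id3 (-3.01 and -2.06) and Id4 (1.33 and 1.40) lie far apart, while their accessibility points lie near 0.

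Nog was 1 of the 10 genes whose accessibility fell by at least 1.5-fold at both ages, where 9.46% of genes fell and 4.32% rose. It stood at 69.7, 26.3 and 32.4 CPM, log2 ratios of -1.40 and -1.10. Peaks had been called separately in each library, and the Nog peak covered 6421, 2707 and 2580 bases, so that per kb covered the ratios were 0.893 and 1.16. Smad6 stood at 101.6, 74.6 and 76.0 CPM, with 7264, 3879 and 4251 bases covered. Since the covered length differs between libraries, these differences cannot be separated from the extent of the called peak. With 1 library per age there is no test.

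In cultured NSCs, the Setd8 knockdown library had more Id4 than the controls, while its Id3 lay within their range. The files of 4 of the 6 RNA-seq samples hold TPM (transcripts per 1000000, scaled by gene length). Within a small tolerance, their values match the columns of the published table for 3 control libraries and 1 knockdown library over 170 of 170 shared genes. The heading of that table names a different day from the 3 days after infection given above. By that table the libraries labelled Ctrl_3, Setd8KD_1 and Setd8KD_2 are controls and the library labelled Setd8KD_3 is a knockdown, whereas by their titles 1 is a control and 3 are knockdowns. Setd8 itself stood at 154, 143 and 143 TPM in the 3 controls and 36.4 TPM in the knockdown, a log2 difference of -1.98 (SE 0.08, limma adjusted p = 0.00399), which separates the libraries as the table does. The fit takes the spread of the controls for the single knockdown library too, and nothing says that the controls came from separate cultures. The p-values therefore measure only the spread between these control libraries, which may be technical, and 6167 of 12703 genes had an unadjusted p under 0.05. The files of the libraries labelled Ctrl_1 and Ctrl_2 hold gene symbols and gene lengths.

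Id4 stood at 4.16, 3.58 and 4.57 TPM in the controls and 8.95 TPM in the knockdown, from 61, 54, 65 and 131 reads, a 2.18-fold difference of TPM (log2 difference of TPM plus 1 0.97, SE 0.13, limma adjusted p = 0.00955). With no filter on low values this was not past the test (limma adjusted p = 0.0954), nor was it with the groups by title. Id1 stood at 73.6, 72 and 66.9 TPM against 104, a 1.46-fold difference under the 1.5-fold limit (log2 difference 0.55, SE 0.09, limma adjusted p = 0.0134). Id3 stood at 351, 297 and 349 TPM against 345, within the range of the controls (limma adjusted p = 0.738). Id2 stood at 60, 55.5 and 49.1 TPM against 68.6, above the controls but not past the test (limma adjusted p = 0.116). By TPM, which is per length, Id3 was the most abundant Id factor in culture and Id4 the least.

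**Figure D5:**
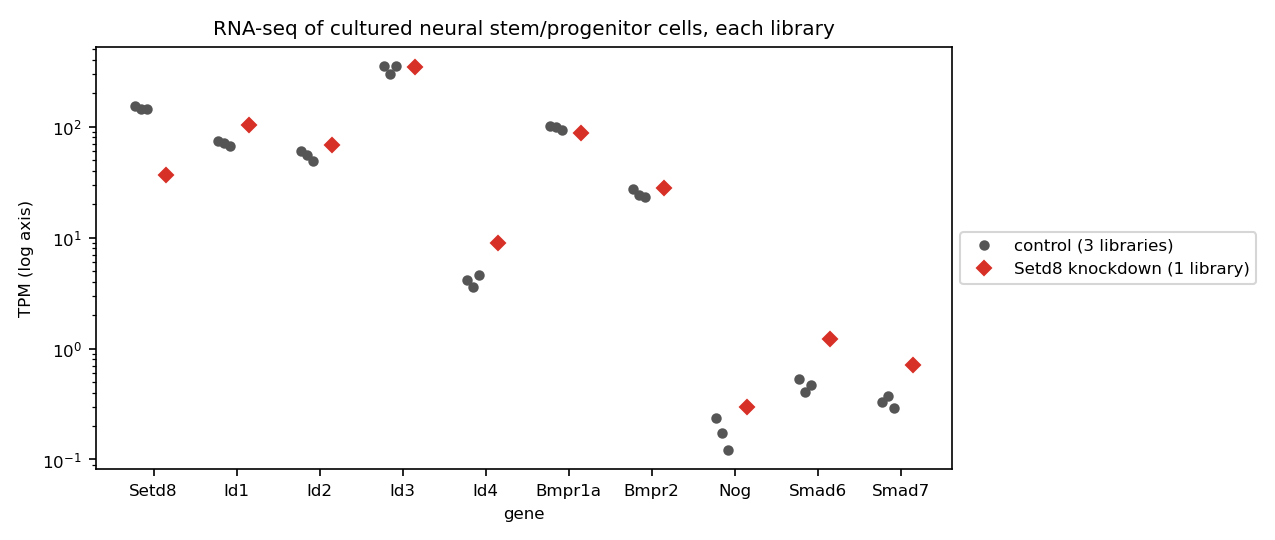
TPM (log axis) of Setd8 and the genes described, other than Bmp4 with its 0 reads, in the 3 control libraries and the 1 knockdown library, each point a library. The knockdown library lies above all controls for Id4 (8.95 against 3.58 to 4.57 TPM) and below them for Setd8.

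Of the 10 genes, 6 passed the filter on low values, and Id4 was the 1 that passed the adjusted p and the 1.5-fold limit, where 6.56% of 12703 genes were higher and 7.95% lower. Bmpr1a stood at 101, 100.2 and 93.7 TPM against 88.6 (limma adjusted p = 0.213) and Bmpr2 at 27.6, 24.4 and 23 against 28.1 (limma adjusted p = 0.314). Bmp4 had 0 reads in all 4 libraries. Nog had 4, 3 and 2 reads against 5, Smad6 14, 11 and 12 against 32 and Smad7 13, 15 and 11 against 28. Smad6 and Smad7 were higher by edgeR on recovered reads (log2 difference 1.36 and 1.09, adjusted p = 0.0106 and 0.035), and not by DESeq2 (adjusted p = 0.14 and 0.261).

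Of the list of 41 pathway genes, 30 were tested and 5 passed, 3 higher and 2 lower, where 6.56% and 7.95% of all genes did. The co-receptor Rgmb (log2 difference 0.72, limma adjusted p = 0.0148), Fst, which encodes the antagonist Follistatin (0.90, 0.00541), and the BMP target Atoh8 (0.89, 0.00561) were higher in the knockdown. The signal transducer Smad5 (-0.67, 0.00888) and the antagonist Chrdl1 (-0.76, 0.0132) were lower. In the cells from mice, Setd8 stood at 31.5, 10.3 and 7.64 CPM in NSC-like cells, from 194, 14 and 3 UMIs.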

How the data were processed

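The members and gene lists were chosen with earlier results of these data known. For scRNA-seq the authors deposited raw UMI counts per gene and barcode (Cell Ranger 2.2.0 and mm10 in the submitters' processing notes). Barcodes needed 1000 UMIs and 500 genes or more, with mitochondrial UMIs of 10% or less (scipy 1.17.1, pandas 2.3.3 and numpy 2.4.6 under Python 3.11.15), and doublets called with scrublet in scanpy 1.11.5 (6.81%, 1.5% and 0.107% of cells) were removed; the rate at 24w is too low to show that the caller worked there. Cells were integrated and clustered in 2 rounds with Seurat 5.3.0 in R 4.3.3 (30 dimensions, resolution 0.8), with 51 genes, the members and pathway list included, kept out. UMIs were pooled per class and age with exact Poisson intervals, and ratios had exact conditional binomial ones. Log2 ratios had 0.5 UMIs added, and a class needed 20 cells for its level to be shown, while ratios of NPC-like cells at 24w rest on 16 cells. The profile of free RNA was taken from barcodes with 10 to 100 UMIs. Its share in a class was set from the UMIs of the 20 pericyte, smooth muscle and endothelial markers. Vascular RNA of any other origin in those cells is therefore counted as free RNA, and predictions can exceed 100% of a level.

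For scATAC-seq the authors deposited raw counts per peak and barcode, with peaks called in each library. Nuclei had 3000 to 100000 counts, took labels by Seurat transfer (score of at least 0.5), and were scaled to the regions shared by the 3 libraries. For RNA-seq the authors deposited TPM after STAR alignment, and 100% of values under 1000 reads came within 0.05 of a whole read once multiplied by length, with 20 to 21.5 M reads (M is 1000000) in genes per library. limma 3.58.1 was run on log2(TPM + 1) for genes with a mean TPM of at least 1 (adjusted p under 0.05 and 1.5-fold), with 3 control libraries against 1, so fold changes of low genes are understated. edgeR 4.0.16 (quasi-likelihood) and DESeq2 1.42.0 on the recovered reads were alternatives. The planned groups by title could not stand against the published table, as set out beside the result. On simulated data limma recovered 64% of 2-fold and 100% of 4-fold changes over 12649 genes, with 33 false calls. All simulated libraries were given the same spread, so the simulation does not test whether the real knockdown library varied as the controls did. Bulk H4K20me1 and ATAC samples were not analysed here. The authors' comparison columns were not used. Genes named beside the members are those of the pathway list that passed a limit and the 3 closest in level to each Id factor, of which 1 is not reported here.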

Additional observations from a re-analysis of the deposited data

Results flagged for a closer look

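Several Id factors differed from P5 in opposite directions in different cell classes at both adult ages, each with counting intervals that exclude a ratio of 1. The difference between classes was not tested, because there is 1 library per age. Ratios to P5 are given for 12w and then 24w.

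Id1 was lower in NSC-like (0.320 and 0.279), AS-like (0.151 and 0.255), NPC-like (0.321 and 0.517), IMN1-like (0.105 and 0.252) and IMN2-like cells (0.258 and 0.271), and higher in PC-like cells (1.57 and 1.62). Id2 was lower in NSC-like (0.467 and 0.627), AS-like (0.665 and 0.526), PC-like (0.267 and 0.174) and VSMC-like cells (0.216 and 0.205), and higher in IMN1-like (1.505 and 1.405) and IMN2-like cells (1.77 and 1.685). Id3 was lower in NSC-like (0.124 and 0.238), AS-like (0.1101 and 0.133), NPC-like (0.0412 and 0.151), IMN1-like (0.207 and 0.207), IMN2-like (0.123 and 0.216) and PC-like cells (0.439 and 0.6197), and higher in VSMC-like cells (1.58 and 1.504), although in the VSMC-like cluster with 74 of 87 P5 cells its levels were 818.5, 1094 and 882.4 CPM. Id4 was higher in NSC-like (2.51 and 2.64) and AS-like cells (4.58 and 4.08), and lower in PC-like cells (0.519 and 0.369).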

How the results depend on the processing

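No paired analysis was possible because the RNA-seq libraries with TPM share fewer than 2 replicate numbers between the groups and the other assays have 1 library per age. Of 248 recomputed log2 ratios of single genes in cell classes, 231 moved by less than the counting interval, 17 moved by more, 15 of these when free RNA was subtracted from the adult libraries, and 0 reversed. Of the 10 genes, the number past the limit of size was 5 in NSC-like, 4 in AS-like, 3 in IMN2-like, 2 in PC-like and 2 in VSMC-like cells. A limit of 1.5-fold gave 8, 7, 5, 6 and 4, but the share of all genes past that limit was not computed, so these counts have no background. P5 cells of like sex gave 1 in NPC-like, 1 in IMN1-like (Id3 in both) and 1 in VSMC-like cells (Bmp4), against 2, 3 and 2. Of the genes lost, Nog had log2 ratios of -2.82 and -2.07 in NPC-like cells and Id2 of -1.44 and -2.55 in VSMC-like cells. In IMN1-like cells Id1 had -2.52 and -1.83 and Smad7 -1.71 and -1.02. These values lay past 2-fold, with fewer P5 cells behind the minimum of 20 UMIs. Nog had 0 UMIs in NPC-like cells at both adult ages and Smad7 had 0 in IMN1-like cells at 24w. Those values rest on the added 0.5 UMIs and show no detectable difference. The NSC-like count became 4 and the IMN2-like count 2, both without Smad7 (-0.91 at 12w in IMN2-like cells, under 2-fold), and the AS-like count 3, without Smad6. The alternatives for PC-like and VSMC-like cells were chosen after seeing the data. At P5 alone, where EC-like cells were too few to give a value, 0 genes were highest in a vascular class, against 6. In RNA-seq, 1 gene passed; with no filter on low values 0 passed (Id4, adjusted p = 0.0954), with edgeR 3 (Id4, Smad6 and Smad7) and with groups by title 0. Leaving out each control library in turn gave 1 to 1. By title, Id2, Id3 and Bmpr2 reversed, with log2 differences of -0.07, -0.09 and -0.13, and Id3 ranged from -0.02 to 0.10 as each control was left out, reversing without the control library labelled Setd8KD_1. The grouping sets which libraries are compared; the cause of the other changes was not tested. The Nog accessibility ratios were -0.92 and -0.73 with regions within 5 kb. Depth limits Smad6, Smad7, Nog and Bmp4 in neural classes, above all at 24w.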

Other observations

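In oligodendrocyte precursor-like (OPC-like) cells at P5 (1694 cells), Nog stood at 19.5 CPM. In OL-like cells the P5, 12w and 24w levels of Id3 were 186.5, 104 and 63.8 CPM, and it led the Id factors of each library by share (53%, 69.7% and 75%), although the adult sums rest on 33 and 12 Id UMIs and free RNA was predicted to give 35% and 103% of the adult Id3 level. A P5 cluster of 70 cells led by Myoc, Gfap and Agt held 2863 CPM of Id3, 924 of Id4 and 93.3 of Nog, an Id sum of 5120 CPM. That cluster stayed unnamed.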
